A study of Mus musculus with 23 samples.

Results

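Siglec receptors were followed in sorted splenic dendritic cells (DCs) of wild-type BALB/c mice. The members were 7 genes, found by symbol among the 47729 gene identifiers of the count table: Siglech, Siglecg, Cd22, Cd33, Siglece, Siglecf and Siglec1. The study set out to define DC subsets of the mouse and to compare them. RNA of sorted cells had been sequenced in 23 libraries, 8 from untreated mice (pools 1 and 2) and 15 from mice given TLI (pools 1 to 4), a treatment that the labels name only by these letters. Each pool was sorted into 4 subsets on CD8 and on CD172, the protein that Sirpa encodes. DC1a cells were CD8hi CD172-, DC1b cells were CD8Int CD172+, DC2 cells were CD8lo CD172hi, and DC3 cells were CD8- CD172lo. DC2 cells of TLI pool 2 were not analysed here, so n was 2 in each untreated group, 3 in the DC2 TLI group and 4 in the other TLI groups. TLI pools 3 and 4 carry the label of batch 2 and all other libraries that of batch 1, so batch 2 holds no untreated mice. Age and sex are not stated in the labels. A replicate is 1 pool of mice, so every p-value measures the spread between pools. The main fit holds all 23 libraries and takes 1 spread per gene for all groups. Tests between untreated groups therefore also draw on the spread of TLI libraries. Subsets of 1 pool come from the same mice, and the main fit has no term for this pairing.

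Siglecs are cell surface lectins of the immunoglobulin superfamily that bind sialic acids, the sugars that cap many glycans. Most of them carry inhibitory motifs in their cytoplasmic tail that, once phosphorylated by Src-family kinases, recruit the phosphatases Ptpn6 and Ptpn11. Siglech has no such motif and signals through the adaptor Tyrobp (DAP12). It is widely used as a marker of mouse plasmacytoid DCs, the main producers of type I interferon. Siglecg and Cd22 restrain B cell receptor signalling, Siglece and Cd33 are found on myeloid cells, Siglecf on eosinophils and alveolar macrophages, and Siglec1 (sialoadhesin) on macrophages of the splenic marginal zone.

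In the GRCm38 annotation 6 of the 7 genes lie on chromosome 7. Siglecf (chr7:43351341-43359531, plus strand), Siglecg (chr7:43408204-43418358, plus strand), Cd33 (chr7:43524216-43544428, minus strand) and Siglece (chr7:43651070-43660161, minus strand) are near neighbours. Cd22 (chr7:30865402-30880342, minus strand) and Siglech (chr7:55768178-55778925, plus strand) lie farther away, and Siglec1 is on another chromosome (chr2:131069220-131086765, minus strand). Cd22 overlaps an antisense gene, Gm29439, whose highest count in any library was 10. The 250 bases before the RefSeq start (GRCm38.p6, C57BL/6J reference) are printed for Siglech and Siglecg, the members with the highest levels, and for Cd33 and Siglecf, which share a run of letters. The windows are chr7:55767934-55768183 for Siglech, chr7:43407989-43408238 for Siglecg, chr7:43533172-43533421 for Cd33 and chr7:43351091-43351340 for Siglecf, each written 5′ to 3′ on the strand of its gene. The Cd33 window lies inside the span of the gene given above. Capitals mark matches to CANNTG, the E-box letters that Tcf4 and other basic helix-loop-helix factors can bind, and to GGAAGT on either strand, a core that Spib and other Ets factors can bind.
Siglech: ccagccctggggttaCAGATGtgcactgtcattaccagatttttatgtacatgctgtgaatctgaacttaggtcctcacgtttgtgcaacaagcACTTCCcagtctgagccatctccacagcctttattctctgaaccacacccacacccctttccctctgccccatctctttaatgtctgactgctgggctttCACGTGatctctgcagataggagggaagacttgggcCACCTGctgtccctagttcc
Siglecg: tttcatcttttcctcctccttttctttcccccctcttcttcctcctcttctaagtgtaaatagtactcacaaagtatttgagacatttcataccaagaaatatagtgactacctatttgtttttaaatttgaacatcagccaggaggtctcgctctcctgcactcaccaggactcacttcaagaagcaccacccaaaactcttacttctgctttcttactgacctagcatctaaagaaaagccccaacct
Cd33: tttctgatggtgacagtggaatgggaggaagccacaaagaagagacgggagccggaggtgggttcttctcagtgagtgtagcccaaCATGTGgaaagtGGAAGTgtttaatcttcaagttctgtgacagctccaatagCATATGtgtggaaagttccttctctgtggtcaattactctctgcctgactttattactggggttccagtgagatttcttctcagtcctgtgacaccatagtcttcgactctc
Siglecf: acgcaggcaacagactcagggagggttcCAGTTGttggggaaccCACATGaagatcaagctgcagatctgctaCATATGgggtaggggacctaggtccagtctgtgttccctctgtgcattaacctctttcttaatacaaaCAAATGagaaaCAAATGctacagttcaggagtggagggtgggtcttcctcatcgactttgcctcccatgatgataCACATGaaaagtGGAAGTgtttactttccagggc
The Siglech window held 3 matches to CANNTG and 1 to GGAAGT, and the Siglecg window held 0 of either. Cd33 had 2 and 1, and Siglecf had 6 and 1. Of 32851 RefSeq promoter windows of this length, 66.2% held CANNTG and 19.7% held GGAAGT, so either match is common. The Cd33 and Siglecf windows share 16 bases, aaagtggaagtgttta, which start at position -157 from the start of Cd33 and at -27 from that of Siglecf and span the GGAAGT match of both. Siglece held 0 of either motif and Cd22 held 2 matches to CANNTG and 0 to GGAAGT.

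Levels are given as CPM (counts-per-million), a gene's count scaled to the total of its library. Totals ran from 19256447 to 36997890 with a median of 27199618, so 3 counts, taken here as the floor of detection, equalled 0.0811 to 0.156 CPM. Itgax (CD11c) was at 77.4 to 532 CPM in all libraries. Cd8a was at 315 to 850 CPM in DC1a libraries and at 0.276 to 1.06 CPM in DC2 libraries, while Sirpa was at 0.0740 to 0.676 CPM in DC1a and at 9.22 to 309 CPM in DC2 libraries. In DC1b cells after TLI, Cd8a spanned 0.327 to 342 CPM. Summed neutrophil or NK cell markers exceeded 3000 CPM in 3 libraries, DC1b TLI pools 1 and 4 and DC3 TLI pool 1. Results are given with and without these 3 where that changed a call.

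Siglech was the most abundant member and stood highest in untreated DC1b cells. Its values there were 1159.5 CPM in pool 1 and 1858 CPM in pool 2. In untreated DC3 cells they were 44.4 and 34.2 CPM, in DC2 cells 2.44 and 25.8 CPM, and in DC1a cells 4.88 and 10.6 CPM. The DC1b libraries lay above the other 6 untreated libraries and the DC3 libraries came next without overlap, whereas the DC1a values fell within the range of DC2.

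**Figure D1:**
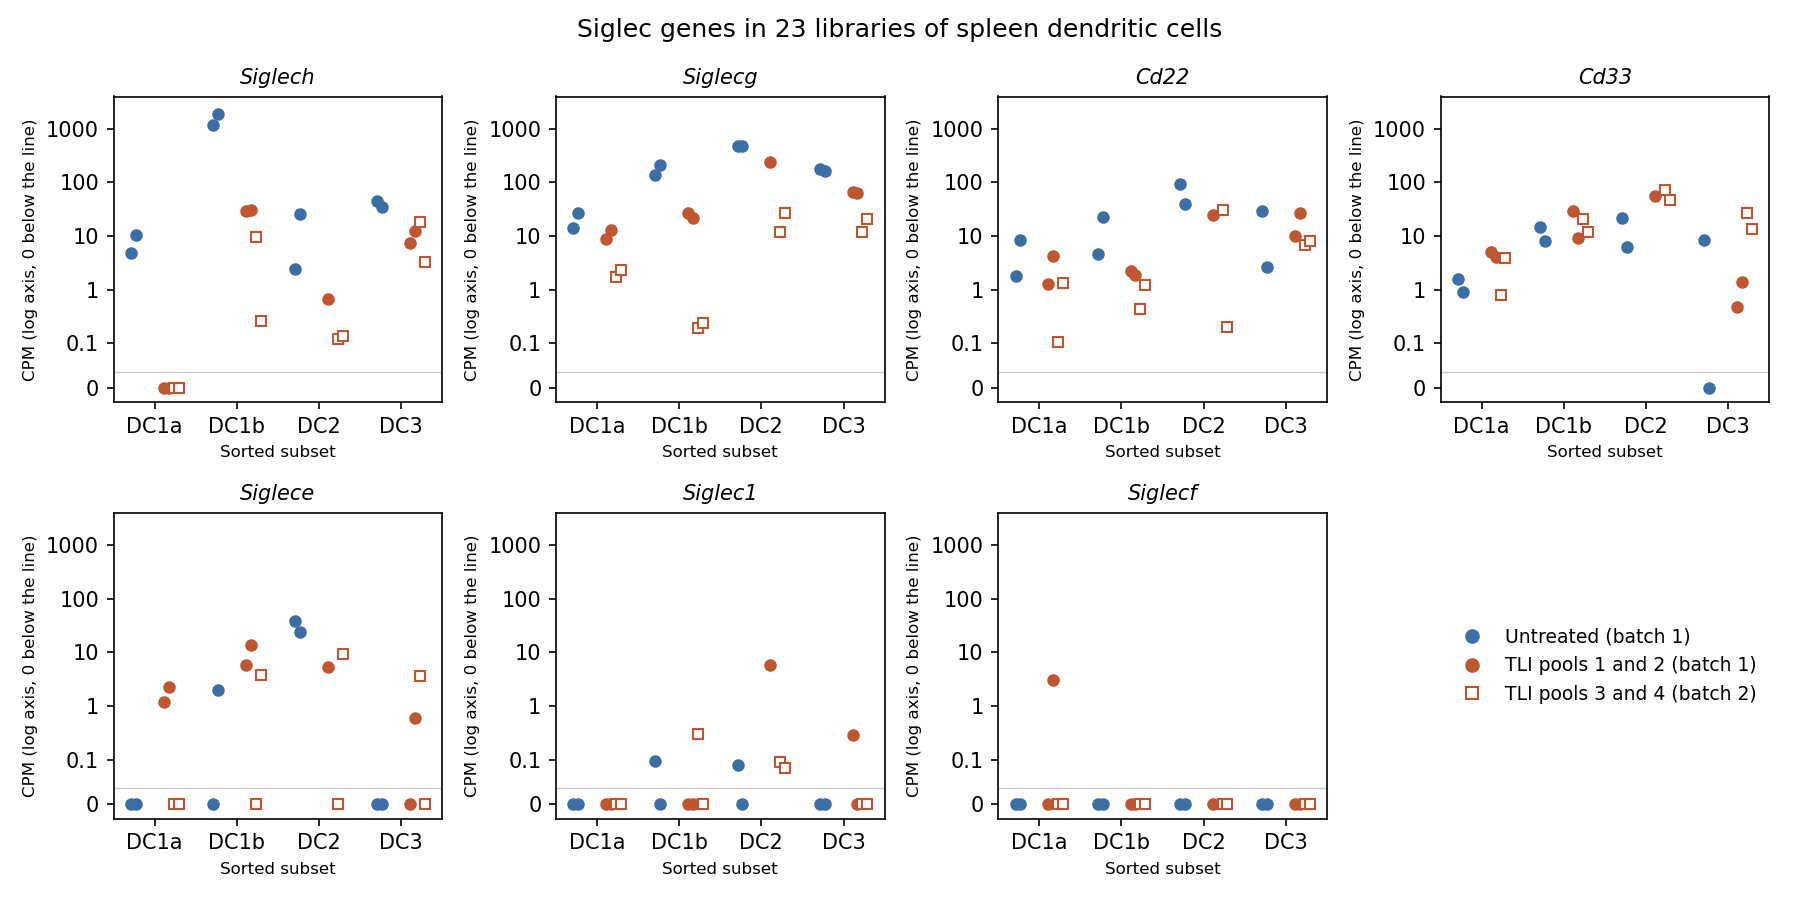
CPM of the 7 Siglec genes in each of the 23 libraries on a log axis, by subset and treatment, with libraries at 0 drawn below the grey line. Blue filled circles are untreated pools, orange filled circles TLI pools of batch 1 and orange open squares TLI pools of batch 2. Siglech stands at 1159.5 and 1858 CPM in untreated DC1b cells, and Siglecg highest, at 486 and 471 CPM, in untreated DC2 cells.

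The mean Siglech level was 1509 ± 494 CPM (SD, n = 2) in untreated DC1b cells, 194-fold that in DC1a cells (7.76 ± 4.08 CPM, n = 2). The fitted log2 difference was 7.32 ± 1.63 (SE) and did not pass the threshold of 0.05 (edgeR quasi-likelihood test, Benjamini-Hochberg adjusted p = 0.0563). No member was called between these groups, where 0.837% of all 19597 genes tested were. Over the 30 alternatives the adjusted p of edgeR or DESeq2 ran from 4.01e-07 to 0.599 and passed in 7, among them without the 3 libraries named above (0.0234), without DC1b TLI pool 4 (0.0129), without DC3 TLI pool 3 (0.0341) and without DC2 untreated pool 1 (0.0441) or pool 2 (0.0440). Against DC1b, the mean was 107-fold lower in DC2 cells and 38.4-fold lower in DC3 cells (edgeR quasi-likelihood test, Benjamini-Hochberg adjusted p = 0.110 and 0.251). In these comparisons 0.398% and 0.393% of all genes were called, and no member was. The DC2 difference passed without the 3 libraries (0.0457) and without DC1b TLI pool 4 (0.0261), within a range of 7.15e-06 to 0.484 over all alternatives. The DC3 difference passed with DESeq2 (Benjamini-Hochberg adjusted p = 0.00119) and without the filter on low counts (0.0157), within a range up to 0.916. In bulk RNA of sorted cells, fewer cells that hold a transcript and less of it per cell cannot be told apart.

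Markers of plasmacytoid DCs also stood highest in untreated DC1b cells. The sum of 12 such markers (Tcf4, Bst2, Ly6d, Ccr9, Spib, Runx2, Pacsin1, Cox6a2, Klk1, Irf7, Tlr9 and Ptprcap) was 5697 and 7390 CPM in untreated DC1b cells. It was 102 and 186 CPM in DC1a cells, 149 and 125 CPM in DC2 cells, and 441 and 307 CPM in DC3 cells. All 12 were above the floor of detection in untreated DC1b cells, where Tcf4, the transcription factor that maintains plasmacytoid DCs, was at 523 to 1026 CPM. Of the 12, 2 rose and 0 fell in untreated DC1b against DC1a cells by edgeR's quasi-likelihood test (8 had an unadjusted p under 0.05, and DESeq2 called 6, all higher), with a median log2 difference of 4.95 against 0.07 for all genes tested. Among the 19597 genes tested, 2104 had an unadjusted p under 0.05 there by the edgeR test. The study's DC gate removed cells that stained for B220, a surface protein of plasmacytoid DCs and B cells. The part of other cell types in the Siglech level was not tested.

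**Figure D2:**
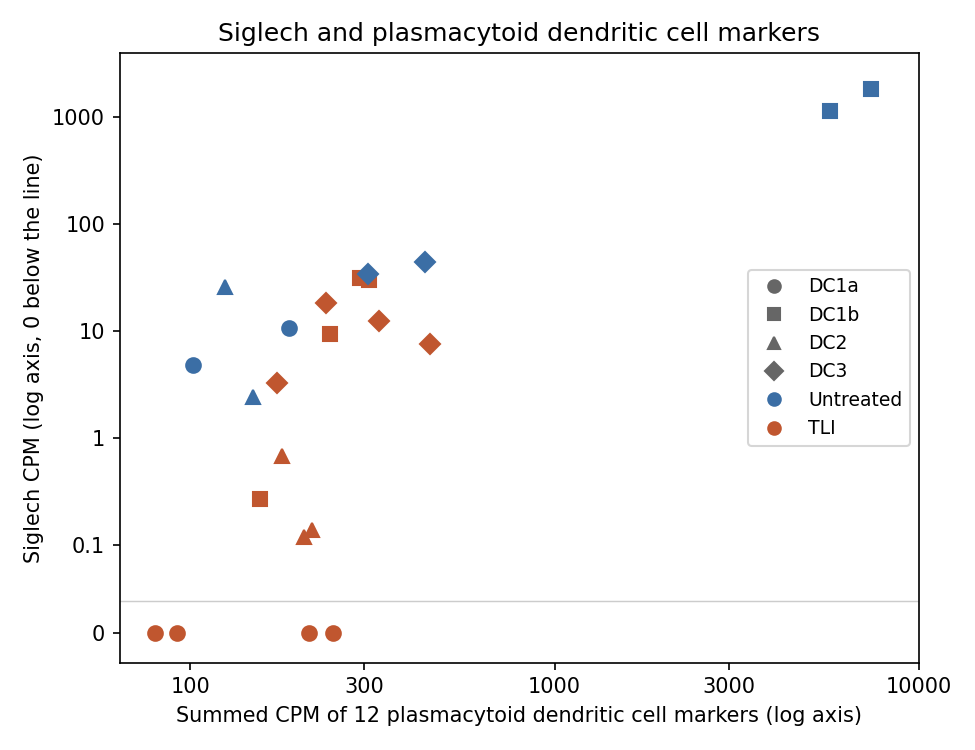
Siglech against the summed level of 12 plasmacytoid DC markers, each point a library, both axes in CPM on log scales and with Siglech at 0 drawn below the grey line. The untreated DC1b libraries, at 1159.5 and 1858 CPM of Siglech and at 5697 and 7390 CPM of the marker sum, lie apart from the other 21.

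After TLI, Siglech in DC1b cells was at 30.0, 31.2, 9.50 and 0.268 CPM in pools 1 to 4. In DC3 cells it was at 7.58, 12.4, 18.4 and 3.30 CPM, and in DC2 cells at 0.681, 0.121 and 0.138 CPM in pools 1, 3 and 4. All 4 DC1a libraries held 0 counts. Every TLI library was below every untreated library of its own subset. The DC1b mean fell from 1509 to 17.8 ± 15.3 CPM (n = 4), 85.0-fold lower, with a fitted log2 difference of -5.78 ± 1.17 (SE) that narrowly missed the threshold (edgeR quasi-likelihood test, Benjamini-Hochberg adjusted p = 0.0505). In that comparison 0 of the 5 members tested and 0.413% of all genes were called. Over the alternatives the adjusted p of edgeR or DESeq2 ran from 3.03e-05 to 0.209 and passed in 6 of 29, among them without DC1b TLI pool 4 (0.0290), DC3 TLI pool 3 (0.0480), and DC2 untreated pool 1 (0.0370) or pool 2 (0.0364). With batch 1 alone the log2 difference was -5.31 (edgeR quasi-likelihood test, Benjamini-Hochberg adjusted p = 0.109).

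The 12 plasmacytoid DC markers summed to 310, 293, 242 and 156 CPM in the DC1b TLI pools. Both untreated values lay above all 4. Cox6a2, a subunit of cytochrome c oxidase, went from 1703 and 2520 CPM to between 0 and 14.7 CPM, and Klk1, a kallikrein protease, from 1219 and 2532 CPM to between 0 and 12.6 CPM. Of the 12 markers, 2 fell and 0 rose by edgeR's quasi-likelihood test (7 had an unadjusted p under 0.05, and DESeq2 called 6, all lower), with a median log2 difference of -4.08 against 0.09 for all genes. Among the 19597 genes tested, 2425 had an unadjusted p under 0.05 in this comparison by the edgeR test. Neutrophil markers summed to 21048, 1406, 1745 and 9203 CPM in the same TLI pools and to 21.0 and 1.16 CPM in the untreated ones, and monocyte markers to between 8207 and 25398 CPM against 3811 and 6066 CPM. The part of these shifts in the lower Siglech level was not tested.

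In the other subsets the untreated and TLI ranges of Siglech were also apart, and edgeR's quasi-likelihood test called none of the differences. The DC1a mean was at least 82.1-fold lower after TLI, with the TLI group set to its floor of 3 counts per library (edgeR quasi-likelihood test, Benjamini-Hochberg adjusted p = 0.163, against 0.0337 without DC1b TLI pool 4, 2.14e-05 without the filter on low counts, 1.32e-07 with DESeq2 and a highest value of 0.615 over all alternatives). The DC2 mean was 45.1-fold lower and the DC3 mean 3.77-fold lower (adjusted p = 0.304 and 0.860 by the Benjamini-Hochberg adjusted edgeR quasi-likelihood test). The DC2 difference passed in 2 of 29 alternatives, with DESeq2 (Benjamini-Hochberg adjusted p = 0.00487) and without the filter on low counts (0.0214), and reached 0.853. Among all genes, 0.0102% were called in DC1a, 0.0612% in DC2 and 0.0255% in DC3 cells. The summed plasmacytoid DC markers were higher after TLI in DC2 cells and overlapped between TLI and untreated libraries in DC1a and DC3 cells. In DC2 cells they were at 179, 205 and 216 CPM after TLI and at 149 and 125 CPM untreated. In DC1a cells they were at 80.4 to 246 CPM against 102 and 186 CPM, and in DC3 cells at 173 to 455 CPM against 441 and 307 CPM. The median log2 difference over the 12 markers was -0.22 in DC1a, 0.78 in DC2 and -0.75 in DC3 cells. For all genes tested it was 0.15, 0.02 and -0.05. The part of plasmacytoid DCs in these Siglech levels was not tested. The test that the TLI effect on Siglech was the same in the 4 subsets gave an unadjusted p of 0.01 and did not pass (edgeR quasi-likelihood test, Benjamini-Hochberg adjusted p = 0.525). DESeq2's likelihood ratio test of the same difference passed (Benjamini-Hochberg adjusted p = 0.0136), and the range over all alternatives was 0.0136 to 0.881.

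Within TLI mice, Siglech separated DC1a cells from DC1b and DC3 cells. Against the floor of DC1a cells, the mean was at least 188-fold higher in DC1b cells (edgeR quasi-likelihood test, Benjamini-Hochberg adjusted p = 0.00181) and at least 110-fold higher in DC3 cells (adjusted p = 0.00387 by the same edgeR test). Between DC1b and DC1a 1.42% of all genes were called, and between DC3 and DC1a 0.75%. In both comparisons Siglech was the member called, 1 of 5 tested, and no ranges overlapped. The DC1b call held in all 31 alternatives (4.55e-14 to 0.0127). The DC3 call held in 30 of 31 (4.13e-13 to 0.0584) and was lost with batch 1 alone. DC3 cells had 33.4-fold more Siglech than DC2 cells (edgeR quasi-likelihood test, Benjamini-Hochberg adjusted p = 0.0524). That difference passed in 7 of 31 alternatives (3.86e-06 to 0.454), among them without the 3 libraries with neutrophil or NK cell markers (0.0204), without DC1b TLI pool 4 (0.0115), DC3 TLI pool 1 (0.0499), and DC2 untreated pool 1 (0.0396) or pool 2 (0.0392). No member was called between DC3 and DC2 cells, where 1.37% of all genes were.

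Siglecg followed another order, with DC2 cells highest. Untreated DC2 cells held 486 and 471 CPM, DC1b cells 138 and 214 CPM, DC3 cells 175 and 163 CPM, and DC1a cells 14.1 and 27.4 CPM. DC2 stood above and DC1a below all other untreated libraries, and DC1b and DC3 overlapped. The DC2 mean (479 ± 10.9 CPM, n = 2) was 23.1-fold the DC1a mean (20.8 ± 9.44 CPM, n = 2), a fitted log2 difference of 4.32 ± 1.05 (SE) that passed the threshold (edgeR quasi-likelihood test, Benjamini-Hochberg adjusted p = 0.0441). It was the 1 call among 5 members tested, in a comparison where 1.91% of all genes were called. Over the 30 alternatives the adjusted p ran from 9.32e-05 to 0.488, and the call held in 12. With the pool as a block it was lost (0.0667), as it was without the batch term (0.480). It was also lost (0.05 to 0.488) without any 1 of the 8 untreated libraries, of DC1a TLI pools 1, 3 and 4, of the 3 DC2 TLI pools, of DC1b TLI pool 2 or of DC3 TLI pool 3.

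Between the other untreated subsets edgeR's quasi-likelihood test called no Siglecg difference. The mean in DC1b cells was 8.48-fold and in DC3 cells 8.16-fold that in DC1a cells (edgeR quasi-likelihood test, Benjamini-Hochberg adjusted p = 0.279 and 0.532, with 0.184% of all genes called between DC3 and DC1a). The DC1b difference passed in 2 of 30 alternatives, with the 8 untreated libraries alone (0.0399) and with DESeq2 (Benjamini-Hochberg adjusted p = 0.0317), and reached 0.912. DC2 cells stood 2.72-fold above DC1b and 2.83-fold above DC3 cells (adjusted p = 0.645 and 0.549 by the Benjamini-Hochberg adjusted edgeR quasi-likelihood test, with 0.837% of all genes called between DC3 and DC2). In untreated DC2 cells 10 B cell markers summed to 25.4 and 11.9 CPM, with 8 of them above the floor of detection in at least 1 library. That sum was 19.1 and 18.3 CPM in DC1a cells, 119 and 151 CPM in DC1b cells and 310 and 152 CPM in DC3 cells. The part of B cells in the Siglecg level was not tested.

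**Figure D3:**
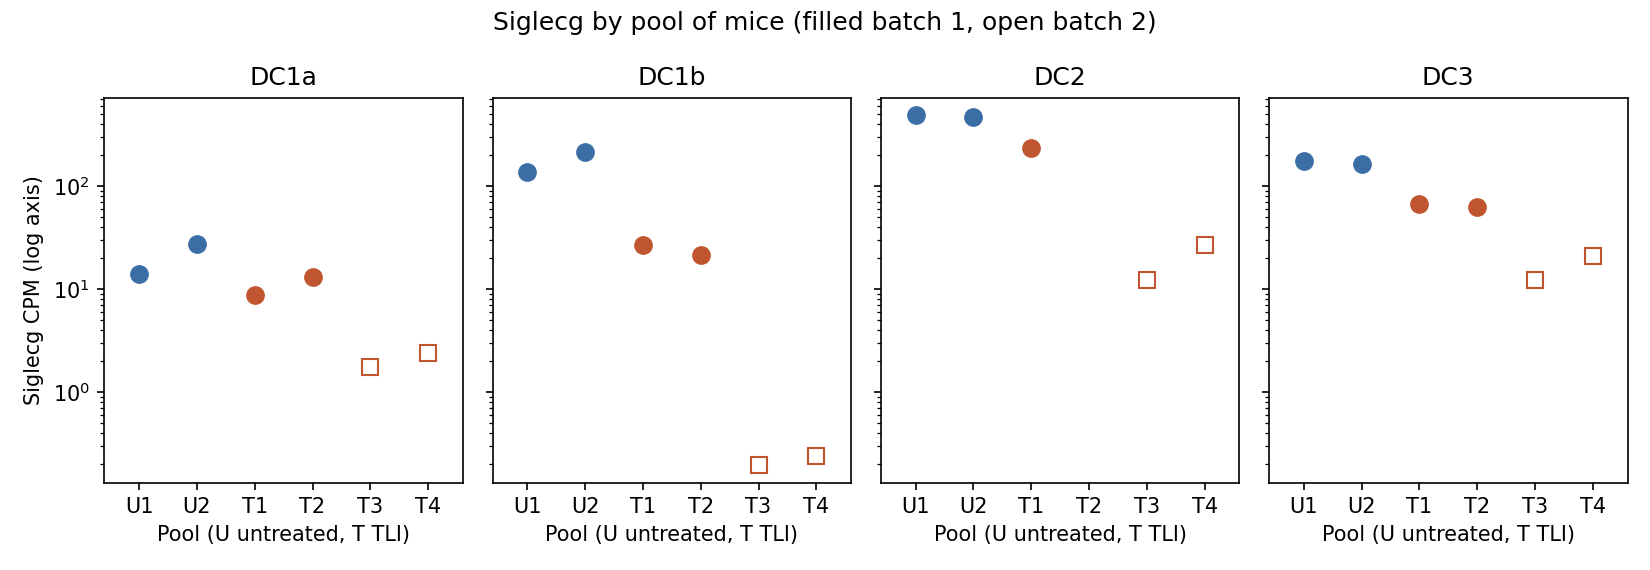
Siglecg in CPM on a log axis, by subset, for untreated pools and for TLI pools of batch 1 and batch 2, each point a library. In every subset the batch 2 TLI libraries lie below the batch 1 TLI libraries, which lie below the untreated libraries.

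After TLI, Siglecg was lower than in untreated mice in every library of every subset. DC1b cells were at 26.7, 21.3, 0.194 and 0.238 CPM in pools 1 to 4, DC3 cells at 67.0, 62.8, 12.1 and 20.9 CPM, and DC1a cells at 8.69, 12.9, 1.73 and 2.36 CPM. DC2 cells were at 236, 12.1 and 26.9 CPM in pools 1, 3 and 4. Within the TLI groups both batch 2 pools lay below the batch 1 pools in all 4 subsets. The means were 14.5-fold lower in DC1b, 5.23-fold in DC2, 4.16-fold in DC3 and 3.23-fold in DC1a cells. The fit, which takes 1 batch shift shared by all subsets, gave a log2 difference of -3.40 ± 0.78 (SE) in DC1b cells (edgeR quasi-likelihood test, Benjamini-Hochberg adjusted p = 0.0701). The values were -1.13 in DC2, -0.34 in DC3 and -0.23 in DC1a cells (edgeR quasi-likelihood test, Benjamini-Hochberg adjusted p = 0.751, 0.938 and 0.988). The DC1b difference passed in 3 of 29 alternatives (0.00186 to 0.424), among them without DC1b TLI pool 1 (0.0432), and gave -2.55 within batch 1 alone (adjusted p = 0.0699 by the Benjamini-Hochberg adjusted edgeR quasi-likelihood test). Batch 1 alone gave -0.96 in DC2, -1.21 in DC3 and -0.95 in DC1a cells (edgeR quasi-likelihood test, Benjamini-Hochberg adjusted p = 0.865, 0.491 and 0.494). In DC1a and DC3 cells the fit of all libraries turned slightly positive when 1 library was left out, up to 0.34 without DC1a untreated pool 2 and 0.08 without DC3 TLI pool 2.

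Across TLI subsets Siglecg again stood higher in DC2 than in DC1a cells, by 14.2-fold in the means (91.6 ± 125 CPM, n = 3, against 6.43 ± 5.36 CPM, n = 4). The log2 difference of 3.42 ± 0.74 (SE) passed (edgeR quasi-likelihood test, Benjamini-Hochberg adjusted p = 0.015). Even so, the lowest DC2 library (12.1 CPM, batch 2) was below the highest DC1a library (12.9 CPM, batch 1). The DC2 mean was carried by pool 1, the only DC2 TLI library of batch 1. B cell, neutrophil, macrophage and NK cell markers summed there to 114, 2322, 3216 and 189 CPM. In DC2 TLI pools 3 and 4 these sums reached at most 45.1, 216, 282 and 0.422 CPM. The eosinophil sum of pool 1 was 642 CPM, below that of pool 4 (715 CPM). In DC1b TLI libraries the B cell sum was 68.6 to 102 CPM, with Siglecg at most at 26.7 CPM. The part of these cells in the Siglecg level of DC2 TLI pool 1 was not tested. Without DC2 TLI pool 1 the mean was 19.5 CPM (n = 2, batch 2), 3.03-fold the DC1a mean and 1.61-fold the DC1b mean. Those 2 means span both batches, so these folds mix batch with subset. Within batch 2 the DC1a and DC1b means were 2.05 and 0.216 CPM, and within batch 1 they were 10.8 and 24.0 CPM against 236 CPM in DC2 cells. Without DC2 TLI pool 1 the fitted log2 difference of DC2 from DC1a, with batch as a term, was 3.48 (edgeR quasi-likelihood test, Benjamini-Hochberg adjusted p = 0.0390). Siglecg was the 1 member called of 5, against 3.4% of all genes in this comparison. The call held in 27 of 31 alternatives (6.27e-05 to 0.196). It was lost without the batch term (0.196), with the 15 TLI libraries alone (0.0545), and without DC1a TLI pool 1 (0.0569) or pool 2 (0.0537). Against DC1b cells, Siglecg was 7.56-fold higher in DC2 and 3.36-fold higher in DC3 cells, with overlapping ranges (edgeR quasi-likelihood test, Benjamini-Hochberg adjusted p = 0.0616 and 0.0711). There 0 of 5 members and 0.214% and 1.11% of all genes were called. Without DC1b TLI pool 1 both passed (0.0416 and 0.0395), and without DC3 TLI pool 4 the DC2 difference did (0.0453), within ranges of 1.61e-05 to 0.544 and 2.07e-04 to 0.679 over all alternatives.

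Cd22 had the same upper rank in untreated mice but a wide spread between pools. Its values were 94.7 and 38.9 CPM in untreated DC2 cells, 29.1 and 2.66 CPM in DC3, 4.61 and 22.4 CPM in DC1b, and 1.81 and 8.30 CPM in DC1a cells. The DC2 libraries were above the other 6, which overlapped one another. The DC2 mean (66.8 ± 39.4 CPM, n = 2) was 13.2-fold the DC1a mean without passing (edgeR quasi-likelihood test, Benjamini-Hochberg adjusted p = 0.372). After TLI, DC2 cells were at 24.8, 31.3 and 0.207 CPM, DC3 cells at 10.04, 26.7, 6.85 and 8.06 CPM, DC1b cells at 2.21, 1.91, 0.443 and 1.25 CPM, and DC1a cells at 1.3, 4.26, 0.108 and 1.33 CPM. DC3 TLI libraries lay above all DC1a and DC1b TLI libraries, and the low DC2 library of pool 4 lay within the range of DC1a and below that of DC1b. The DC2 mean was 10.7-fold the DC1a and 12.9-fold the DC1b mean after TLI (edgeR quasi-likelihood test, Benjamini-Hochberg adjusted p = 0.124 and 0.309). DESeq2 called both (Benjamini-Hochberg adjusted p = 0.00918 and 0.0117), the first also passed without DC2 TLI pool 4 (0.0447), and the other alternatives reached 0.527 and 0.847. The DC3 mean was 7.37-fold the DC1a and 8.88-fold the DC1b mean (edgeR quasi-likelihood test, Benjamini-Hochberg adjusted p = 0.382 and 0.299), with ranges of 0.0730 to 0.893 and 0.0396 to 0.730 over the alternatives, of which DESeq2 called the second. Between treatments the DC1b and DC2 ranges did not overlap, with means 9.31-fold and 3.56-fold lower after TLI (edgeR quasi-likelihood test, Benjamini-Hochberg adjusted p = 0.472 and 0.926).

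Cd33 was higher after TLI in DC2 cells in every library. It stood at 55.6, 71.5 and 46.6 CPM in the 3 DC2 TLI libraries and at 21.8 and 6.28 CPM in the untreated ones. The ranges did not overlap and the means differed 4.12-fold, but the log2 difference of 1.68 ± 1.67 (SE) was far from the threshold (edgeR quasi-likelihood test, Benjamini-Hochberg adjusted p = 0.823). DC1b cells held 29.4, 9.27, 20.6 and 11.96 CPM after TLI and 14.97 and 8.16 CPM untreated, while DC1a cells held 0.784 to 5.13 CPM in all 6 libraries. In DC3 cells the batches were apart, with 0.474 and 1.40 CPM in TLI pools 1 and 2 and 27.4 and 13.8 CPM in pools 3 and 4, against 8.33 and 0 CPM in the untreated pools. The log2 difference in DC3 cells was 0.97 in the fit of all libraries and -2.01 with batch 1 alone (edgeR quasi-likelihood test, Benjamini-Hochberg adjusted p = 0.887 and 0.698). Among TLI groups the DC2 mean (57.9 ± 12.6 CPM, n = 3) was 16.7-fold the DC1a mean with no overlap (edgeR quasi-likelihood test, Benjamini-Hochberg adjusted p = 0.168). DESeq2 called it (Benjamini-Hochberg adjusted p = 0.0205), and none of the other alternatives did, at up to 0.605. Macrophage markers summed to 3216, 257 and 282 CPM in the 3 DC2 TLI libraries and to 214 and 357 CPM in untreated DC2 cells, and monocyte markers to between 7542 and 13317 CPM against 6116 and 5567 CPM. Their part in the Cd33 level was not tested.

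Siglece was found mainly in untreated DC2 cells, at 38.7 and 23.8 CPM, and was at 0 in the untreated DC1a and DC3 libraries and in 1 of 2 DC1b libraries (the other held 2.00 CPM). Against the floor, its mean in DC2 cells (31.2 ± 10.5 CPM, n = 2) was at least 284-fold higher than in DC1a and at least 246-fold higher than in DC3 cells (edgeR quasi-likelihood test, Benjamini-Hochberg adjusted p = 0.309 and 0.377). DESeq2 called both (Benjamini-Hochberg adjusted p = 1.73e-09 and 1.98e-09), and the other alternatives did not, at up to 0.812 and 0.819. The DESeq2 fits gave log2 differences of 25.93 for DC2 against DC1a and -25.95 for DC3 against DC2. Those of edgeR were 12.6 and -12.6. In each comparison 1 group held 0 counts, so neither size is a measured fold. After TLI, DC2 cells were at 5.32, 0 and 9.45 CPM, below both untreated libraries, and DC1b cells at 5.85, 13.5, 0 and 3.81 CPM. DC1a and DC3 cells after TLI reached at most 2.28 and 3.62 CPM, with 2 of 4 libraries at 0 in each. DESeq2 called Siglece higher after TLI in both (Benjamini-Hochberg adjusted p = 4.89e-07 and 3.25e-08), against untreated groups at 0 and with overlapping ranges. The main fit did not (edgeR quasi-likelihood test, Benjamini-Hochberg adjusted p = 0.581 and 0.522).

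Siglecf and Siglec1 were close to absent and did not pass the filter on low counts. Siglecf had 0 counts in 22 libraries and 83 counts (3.05 CPM) in DC1a TLI pool 2, where the eosinophil markers summed to 23.2 CPM and lay within the DC1a range of 14.2 to 88.1 CPM. That sum was 274 to 1396 CPM in DC1b and 617 to 715 CPM in DC2 libraries after TLI, which held 0 counts of Siglecf. The part of eosinophils in the Siglecf level was not tested. Siglec1 reached 136 counts (5.78 CPM) in DC2 TLI pool 1 and at most 0.305 CPM elsewhere. Macrophage markers summed to 3216 CPM in that library. They summed to 2419 and 1996 CPM in DC1b TLI pools 1 and 2, which held 0 counts of Siglec1. The part of macrophages in the Siglec1 level was not tested. At these depths a count of 0 allows up to 0.0811 to 0.156 CPM, which covers counting error alone.

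Since the genes differ in length, levels of different members were compared per kilobase of annotated exon. In untreated DC1b cells Siglech led with a mean level of 446 CPM per kb, above Siglecg at 36.6, Cd22 at 2.68 and Cd33 at 1.49 CPM per kb. In untreated DC2 cells the order was Siglecg at 99.6, Siglece at 16.9, Cd22 at 13.3 and Siglech at 4.18 CPM per kb. Siglecg led in untreated DC3 cells as well, at 35.2 CPM per kb with Siglech at 11.6, and in untreated DC1a cells, at 4.32 CPM per kb with Siglech at 2.30. After TLI the leading member was Siglech in DC1b cells (5.25 CPM per kb) and Siglecg in DC2 cells (19.1 CPM per kb), DC3 cells (8.47 CPM per kb) and DC1a cells (1.34 CPM per kb). In the batch 2 libraries alone Cd33 led in DC1b cells, at 2.1 CPM per kb with Siglech at 1.44, and in DC2 cells, at 7.60 CPM per kb with Siglecg at 4.06.

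Over the 6 pairs of untreated subsets, 1 of 30 tests of a member passed, where 0.76% of all gene tests did. Over the 6 pairs of TLI subsets, 3 of 30 passed, against 1.38% of all gene tests. Of 20 tests between TLI and untreated 0 passed with edgeR's quasi-likelihood test, where 0.128% of all gene tests did, although 4 had an unadjusted p under 0.05 and DESeq2 called 6. By the same edgeR test 1912, 2425, 1765 and 2044 of the 19597 genes tested had an unadjusted p under 0.05 in DC1a, DC1b, DC2 and DC3 cells. The 6 DESeq2 calls include Siglece in DC1a and DC3 cells, whose untreated libraries all held 0 counts. For the difference of the TLI effect between subsets edgeR called 0 of 5 members and 0.0357% of all genes. There 1 member and 1532 of all genes had an unadjusted p under 0.05, and DESeq2 called 1 member. These shares and counts of all genes are those of edgeR and do not apply to the DESeq2 counts.

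**Figure D4:**
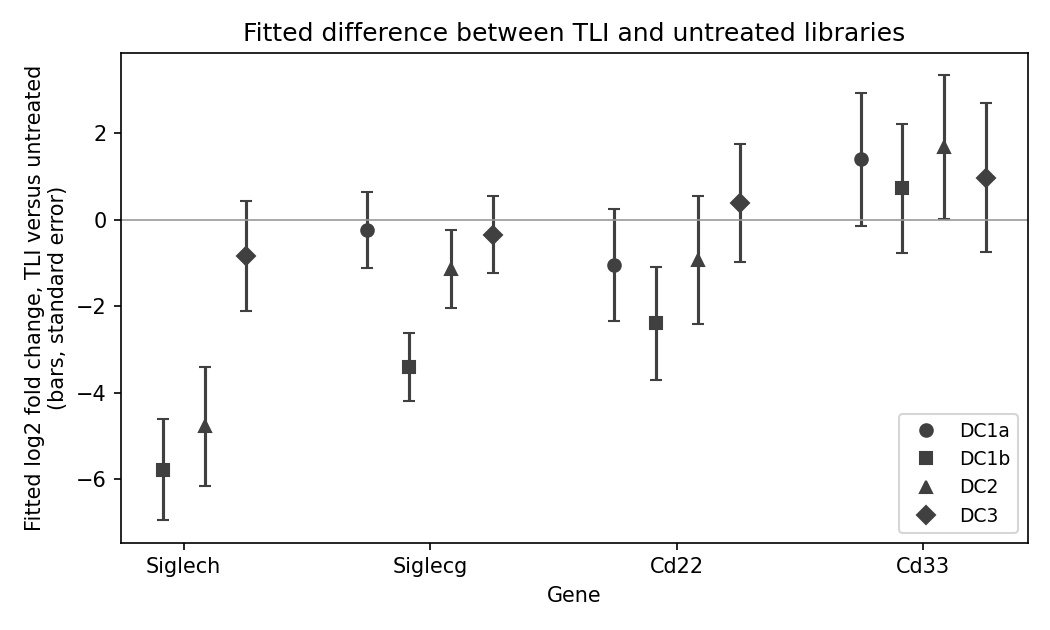
Fitted log2 difference between TLI and untreated libraries with its standard error for Siglech, Siglecg, Cd22 and Cd33 in each subset, from the fit of all 23 libraries with batch as a term. Points below 0 are lower after TLI; Siglech in DC1a cells is left out because all 4 TLI libraries hold 0 counts. Siglech and Siglecg in DC1b cells lie at -5.78 and -3.40, and all 4 Cd33 points lie above 0 with standard errors of 1.5 to 1.73, although that of DC3 cells goes to -2.01 with batch 1 alone.

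Of the machinery that Siglecs signal through, edgeR's quasi-likelihood test called 2 genes between subsets. Of 16 signalling partners, all tested, 2 rose in untreated DC1b against DC1a cells: Tyrobp, the adaptor of Siglech, and Fgr, a Src-family kinase. In that comparison 0.837% of all genes were called. Tyrobp was at 5876 and 8823 CPM in untreated DC1b cells, 3018 and 2560 CPM in DC2, 1422 and 1802 CPM in DC3, and 1144 and 1076 CPM in DC1a cells. The order of subsets for Tyrobp was without overlap between neighbours. Its log2 difference was 2.44 ± 0.40 (SE) for DC1b against DC1a and -2.16 ± 0.40 for DC3 against DC1b (edgeR quasi-likelihood test, Benjamini-Hochberg adjusted p = 0.00532 and 0.0210). Leaving out DC1a untreated pool 1 (0.112) or pool 2 (0.126) or DC1b untreated pool 2 (0.0694) ended the first call, and leaving out DC1b untreated pool 2 (0.227) or DC3 untreated pool 1 (0.240) or pool 2 (0.180) the second, which also missed without the batch term (0.0674). The ranges over all alternatives were 7.23e-07 to 0.126 and 3.64e-05 to 0.240.

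Fgr split the subsets into a high and a low pair. Untreated DC2 cells held 204 and 258 CPM and DC1b cells 184 and 174 CPM, against 6.05 and 10.4 CPM in DC3 and 6.76 and 8.64 CPM in DC1a cells. It rose in DC2 and DC1b against DC1a cells (log2 differences of 4.69 ± 0.88 and 4.25 ± 0.86, edgeR quasi-likelihood test, Benjamini-Hochberg adjusted p = 0.00864 and 0.0258). It fell in DC3 cells against DC2 and DC1b cells (-4.85 ± 0.89 and -4.40 ± 0.87, edgeR quasi-likelihood test, Benjamini-Hochberg adjusted p = 0.0124 and 0.0344). The 4 calls each ended when 1 library of DC1a (for the first pair) or of DC3 (for the second pair) was left out, with adjusted p between 0.121 and 0.380, and those against DC1b also when 1 DC1b library was left out (0.0831 to 0.133). For DC3 against DC1b, each other untreated library also ended it (0.0521 to 0.0550), as did the pool as a block (0.0611), and without the batch term both calls against DC1b missed (0.0570 for DC1a and 0.0819 for DC3). Over all alternatives the 4 ranges were 5.46e-08 to 0.182, 1.70e-06 to 0.380, 2.92e-08 to 0.176 and 9.06e-07 to 0.347.

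In TLI mice the same 2 partners rose in DC1b and in DC2 against DC1a cells, where 1.42% and 3.4% of all genes were called. The log2 differences were 1.93 ± 0.28 and 1.81 ± 0.29 for Tyrobp (edgeR quasi-likelihood test, Benjamini-Hochberg adjusted p = 0.000938 and 0.00156). For Fgr they were 4.53 ± 0.64 and 4.52 ± 0.65 (edgeR quasi-likelihood test, Benjamini-Hochberg adjusted p = 0.000608 and 0.000478). Of these 4 calls 3 held in all 31 alternatives, and that of Fgr in DC1b held in 30 and was lost with batch 1 alone (0.1). Fgr fell in DC3 against DC1b and DC2 cells (-3.01 ± 0.60 and -3.00 ± 0.61) and Tyrobp in DC3 against DC1b cells (-1.32 ± 0.27, edgeR quasi-likelihood test, Benjamini-Hochberg adjusted p = 0.0173, 0.0170 and 0.0230). Leaving out DC3 TLI pool 3 (0.0964, 0.0840 and 0.105) or pool 4 (0.0868, 0.0805 and 0.0705) ended all 3 calls. DC2 TLI pool 3 ended the second (0.0509), and DC1b TLI pool 1 (0.0762) or pool 2 (0.0570) or DC3 TLI pool 2 (0.105) the third. None of the 3 passed with batch 1 alone (0.699, 0.267 and 0.313) or with the 15 TLI libraries alone (0.0591, 0.06 and 0.0644), and the third also missed without the batch term (0.0509) and without the 3 libraries with neutrophil or NK cell markers (0.0771). Over all alternatives these ranged from 2.11e-06 to 0.699, from 2.15e-05 to 0.267 and from 2.62e-04 to 0.313. Between TLI and untreated, 0 of the 16 partners were called in any subset by edgeR's quasi-likelihood test, but 0, 4, 1 and 5 had an unadjusted p under 0.05 in DC1a, DC1b, DC2 and DC3 cells and DESeq2 called 0, 1, 0 and 1. Among the 19597 genes tested, 1912, 2425, 1765 and 2044 had an unadjusted p under 0.05 in these subsets by the edgeR test. The phosphatase Ptpn6 was detected in all libraries, at 15.9 to 336 CPM, and Inpp5d at 48.0 to 547 CPM.

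**Figure D5:**
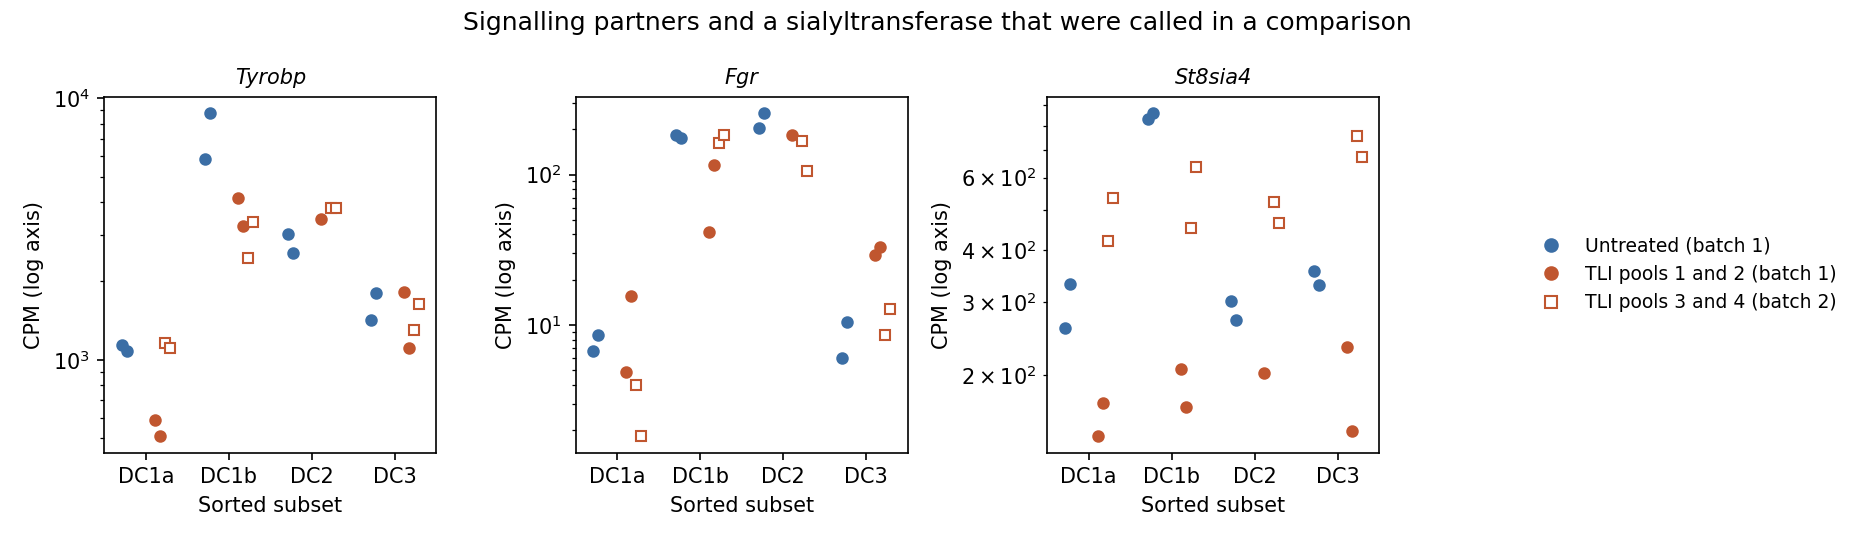
Tyrobp, Fgr and St8sia4 in CPM on log axes, each point a library, by subset and treatment. Fgr is at 41.4 to 258 CPM in DC1b and DC2 cells and at 1.82 to 33.2 CPM in DC1a and DC3 cells; St8sia4 is higher in batch 2 than in batch 1 TLI libraries of every subset.

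Of 26 genes for the synthesis and transfer of sialic acid, the Siglec ligand, 20 were tested and 1 was called by edgeR's quasi-likelihood test, in 3 of the 16 comparisons. Of all genes, 0.837% were called between untreated DC1b and DC1a, 0.398% between untreated DC2 and DC1b, and 0.413% between TLI and untreated DC1b cells. In untreated DC1b against DC1a cells 7 had an unadjusted p under 0.05, as 2104 of the 19597 genes tested did by the edgeR test. DESeq2 called 4 in that comparison, all higher, and over the 16 comparisons it made 46 calls. St8sia4, which builds polysialic acid chains, was at 829 and 860 CPM in untreated DC1b cells, 357 and 331 CPM in DC3, 302 and 272 CPM in DC2, and 261 and 332 CPM in DC1a cells. The DC1b libraries stood above the other 6, which lay close together. St8sia4 rose in DC1b against DC1a cells (log2 difference 1.22 ± 0.28) and fell in DC2 against DC1b cells (-1.47 ± 0.28, edgeR quasi-likelihood test, Benjamini-Hochberg adjusted p = 0.0471 and 0.0215). The first call was lost whenever 1 library other than DC1b TLI pool 1 or 3 or DC3 TLI pool 1 or 2 was left out (0.0507 to 0.608), and the second without any 1 library of either group (0.107 to 0.228). Without the batch term they gave 0.720 and 0.748, without the filter on low counts 0.223 and 0.0729, and with the 8 untreated libraries alone the first gave 0.0565, within ranges of 4.16e-04 to 0.720 and 2.14e-05 to 0.748.

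After TLI, St8sia4 in DC1b cells was at 207, 168, 454 and 636 CPM in pools 1 to 4, below both untreated libraries. The log2 difference, from the fit with batch as a term, was -1.90 ± 0.24 (edgeR quasi-likelihood test, Benjamini-Hochberg adjusted p = 0.00294). It was -1.84 within batch 1 alone (adjusted p = 0.0977 by the Benjamini-Hochberg adjusted edgeR quasi-likelihood test) and -0.88 without the batch term (0.668), while every fit without 1 library kept the call. Cmah, which makes the glycolylated sialic acid that mice carry, was at 206 and 179 CPM in untreated DC1b cells and at most 68.0 CPM elsewhere. Its differences of DC1b from DC1a and of DC2 from DC1b did not pass by edgeR (quasi-likelihood test, Benjamini-Hochberg adjusted p = 0.354 and 0.307) and did by DESeq2 (Benjamini-Hochberg adjusted p = 0.00708 and 0.000214). Of 7 genes for sialic acid removal, 6 were tested and 0 were called in any of the 16 comparisons by edgeR's quasi-likelihood test, where at most 3 in any comparison had an unadjusted p under 0.05 and DESeq2 called at most 2. Among the 19597 genes tested, 1464 to 3461 had such an unadjusted p, depending on the comparison. In untreated DC1b against DC1a cells the median log2 difference was 0.31 over the partners, 1.07 over the synthesis genes and 2.71 over the removal genes, against 0.07 over all genes tested. Mag, a Siglec of myelin, was at 0 to 5.11 CPM.

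For the 4 members with the highest levels, the genes whose log2 CPM followed them most closely over the 23 libraries were listed as a description. For Siglech these were Cox6a2 (Pearson r = 0.895), Gm21762 (0.858) and D13Ertd608e (0.856), and all 3 stood highest in untreated DC1b cells. Gm21762 and D13Ertd608e were at 334 to 560 CPM and 340 to 624 CPM there and at most at 6.64 and 11.5 CPM in any other library. For Siglecg they were Akap9 (0.897), Crtc3 (0.893) and Zswim4 (0.870). Akap9 had means of 223 to 252 CPM in untreated DC1b, DC2 and DC3 cells and 116 CPM in DC1a cells. For Cd22 they were Tssc4 (0.805), Ddx24 (0.770) and Btg3 (0.770). For Cd33 they were C130050O18Rik (0.799), Dram2 (0.782) and Cd300ld (0.776), the last at means of 84.2 and 91.8 CPM in DC1b and DC2 cells after TLI and below 1 CPM in DC1a and DC3 cells. The points of each correlation share pools, batches and depth.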

How the data were processed

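Spleen cells enriched for CD11c were stained, gated as lineage-negative MHC class II-positive DCs and sorted from pools of BALB/c mice, and cDNA was amplified from few cells with the SMARTseq v4 kit before library preparation. The authors trimmed reads with Trimmomatic, aligned them to GRCm38 with HISAT2 and estimated transcript abundance with StringTie. The deposited table holds estimated counts per Ensembl gene, written as whole numbers, so amplified fragments and not molecules were counted. Symbols, coordinates and exon lengths came from the GENCODE annotation of GRCm38, in which 47224 of 47729 identifiers had a symbol, and promoter sequences from RefSeq.

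CPM was each deposited estimated count over its library total. Genes were tested with edgeR 4.0.16 (R 4.3.3): TMM scaling, a filter on low counts by group that kept 19597 genes, 1 fit of 8 groups plus batch over 23 libraries, the quasi-likelihood test, and Benjamini-Hochberg adjustment over all genes tested at 0.05. The common biological coefficient of variation was 1.08. The SE given with a log2 difference was worked back from the test, as the absolute difference over the square root of the quasi-likelihood F statistic. DESeq2 1.42.0, other scaling and filters, fits without batch, on part of the libraries or with the pool as a block, and leaving out each library in turn were the alternatives, and leaving out 3 libraries with neutrophil or NK cell markers above 3000 CPM was chosen after seeing the data. The procedure was tested on simulated data. Libraries of 1 pool come from the same mice by their labels, which pairs them; residuals of the 33 same-pool pairs correlated at -0.162 to 0.0673. Folds are ratios of mean CPM, with a group at 0 set to 3 counts per library, and a call is an adjusted p under 0.05. Intervals of counting error do not cover amplification.

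The members and the gene lists were chosen with earlier results of these data known. Other genes are named where called, at most 3 per list and comparison with a mean of at least 5 CPM, and as the 3 nearest genes of each member at that mean by Pearson correlation of log2 CPM (prior count of 2). Cmah, Ptpn6, Inpp5d, Mag and single marker genes were named as context after their values were seen.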

Additional observations from a re-analysis of the deposited data

Results flagged for a closer look

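Of 17 groups of 4 libraries in which a member was detected, 5 had 1 library whose distance from the nearest other exceeded the critical share of the group's range. For Siglecf and Siglec1, 3 of these 5 groups, the other pools were all at 0, so the measure was at its maximum by construction, and the rate of about 1 in 20 groups by chance does not apply to them. Cd22 was at 26.7 CPM in DC3 TLI pool 2, with the other 3 pools between 6.85 and 10.04 CPM. Siglece was at 3.62 CPM in DC3 TLI pool 3, with the others at most at 0.591 CPM. Siglecf was at 3.05 CPM in DC1a TLI pool 2 and at 0 in the other 3 pools. Siglec1 was at 0.305 CPM in DC1b TLI pool 3 and at 0.284 CPM in DC3 TLI pool 1, with 11 and 6 counts, and at 0 in the other pools of both groups.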

How the results depend on the processing

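Among untreated pairs, TLI pairs, TLI against untreated and the difference of the TLI effect, 1, 3, 0 and 0 tests of members passed. Without the filter on low counts these were 4, 9, 4 and 1, and with DESeq2 9, 13, 6 and 1. The shares of all genes given above are those of the main edgeR fit. The counts under other settings therefore have no share beside them and are not a result about the members. Among untreated pairs the count was 0 without the batch term, 0 with the pool as a replicate block, 2 with the 8 untreated libraries alone and 3 without the 3 libraries with neutrophil or NK cell markers; TLI pairs gave 3 with the block. The block ended 1 call of a member, that of Siglecg in untreated DC2 against DC1a cells. Among the other named genes it ended 1 call, that of the signalling partner Fgr in untreated DC3 against DC1b cells. Leaving out 1 library at a time gave 0 to 3 calls among untreated pairs, 2 to 6 among TLI pairs, 0 to 2 for TLI against untreated and 0 to 0 for the difference of effects, with the highest count each time without DC1b TLI pool 4 for the first 3. Without DC1b TLI pool 1 TLI pairs gave 5 calls. Of the 27 tests of a member with an unadjusted p under 0.05, 0 changed direction under an alternative, and of the other 53, 23 did. Among those the text gives or plots, TLI against untreated went to -2.01 for Cd33 in DC3 cells with batch 1 alone and to -0.12 for Cd22 in DC3 cells without the batch term, and Siglecg in untreated DC3 against DC1b cells to 0.0081 with the replicate block. Leaving out 1 library moved this last difference from -0.35 to 0.35. Between TLI and untreated it moved Siglecg from -0.63 to 0.34 in DC1a and from -0.73 to 0.0825 in DC3 cells, Cd22 from -1.76 to 0.43 in DC1a and from -0.47 to 2.90 in DC3 cells, and Cd33 from -0.13 to 1.18 in DC1b and from -0.022 to 10.6 in DC3 cells. Of the values of named genes under an alternative, 1574 kept their direction and side of the threshold, 59 moved past it and 98 no longer passed. The cause of these shifts was not tested. With 2 libraries per untreated group, a 194-fold ratio of means (Siglech, DC1b against DC1a) did not pass the threshold. Under TMM-scaled library sizes the mean level of Siglecg went to 440.4 CPM in untreated DC2 and 149.7 CPM in untreated DC3 cells, and 54 other levels moved by less than the spread between replicates.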
